A study of Mus musculus with 24 samples.

Results

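The quadriceps of mice that lost nebulin in muscle was compared with the quadriceps of controls, gene by gene. The comparison used the 12 arrays titled as quadriceps, 6 control and 6 conditional knockout (cKO), of the 24 arrays of the series, and every gene that the array's annotation pairs with exactly 1 symbol. All animals were males of 40 to 42 days on a background described as mixed C57BL/6J and 1219S6/SvEvTac, and all of them, controls included, were homozygous for a conditional nebulin allele. The cKO animals were also hemizygous for MCK-Cre, a recombinase under the muscle creatine kinase promoter, which acts in muscle fibres and not in the other cells of the tissue, and the controls lacked it. The submitters call the 6 arrays of a group biological replicates and report that this muscle is much reduced in size in the cKO. Of 19938 genes on the array, 15682 were bright enough to be tested.

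Nebulin is a giant protein that runs along the actin thin filament of the sarcomere, from the Z-disc, where its end is anchored, towards the pointed end. It is known to stabilise the filament and to help set its length, and recessive mutations of the human gene are a common cause of nemaline myopathy, a congenital muscle weakness with rod-shaped aggregates of Z-disc material. The quadriceps of the mouse is built mainly from fast fibres, which contain the fast isoforms of myosin, troponin and the calcium pump.

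All values are log2 intensities, and a change is the cKO mean minus the control mean on that scale. A gene is said to rise or fall only where its adjusted p in limma (Benjamini-Hochberg over all genes tested) was under 0.05. By this rule 33.9% of the genes were called, 20% higher and 14.0% lower in cKO, and for 16.4% the arrays of the groups did not overlap at all (10.3% with every cKO array above, 6.13% with every cKO array below). The median change over all genes was -0.01 and the median standard error 0.10. Of the genes called higher 1061 changed at least 1.5-fold and 61 at least 4-fold, and of those called lower 541 and 8. The share called ran from 15.4% in the dimmest of 5 equal bins of genes to 49.0% in the brightest. Direction also varied with level. The dimmest bin had a median change of -0.11, with 172 genes higher and 312 lower. The bin next to the brightest had a median of 0.10 (873 higher, 453 lower), and the brightest had 0.01 (770 and 768). Another scaling shifts the balance of directions: 58.8% of called genes were higher as deposited, 49.2% after quantile normalization and 40.8% when arrays were centred on their 75th percentile, which moved the median of all genes to -0.09. The number of arrays limits the precision, and the number of cells and the RNA per cell cannot be told apart in whole muscle.

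The controls varied more than the cKO arrays. The median standard deviation of a gene was 0.198 in controls and 0.143 in cKO. Control 4 stood furthest apart: 49 small nucleolar RNAs had a mean of 8.05 on that array, against 6.66 to 7.20 on the other controls and 6.58 to 6.81 on the cKO arrays, and its complex I mean was the highest too. Control 1 and control 6 carried more slow fibre RNA than the other controls. Without control 4 there were 5361 called genes, without control 6 there were 6268, and without controls 4 and 6 there were 6126, against 5317 with all arrays. List counts of 3 or more are repeated below without control 4 where they moved by more than 1.5 times.

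**Figure D1:**
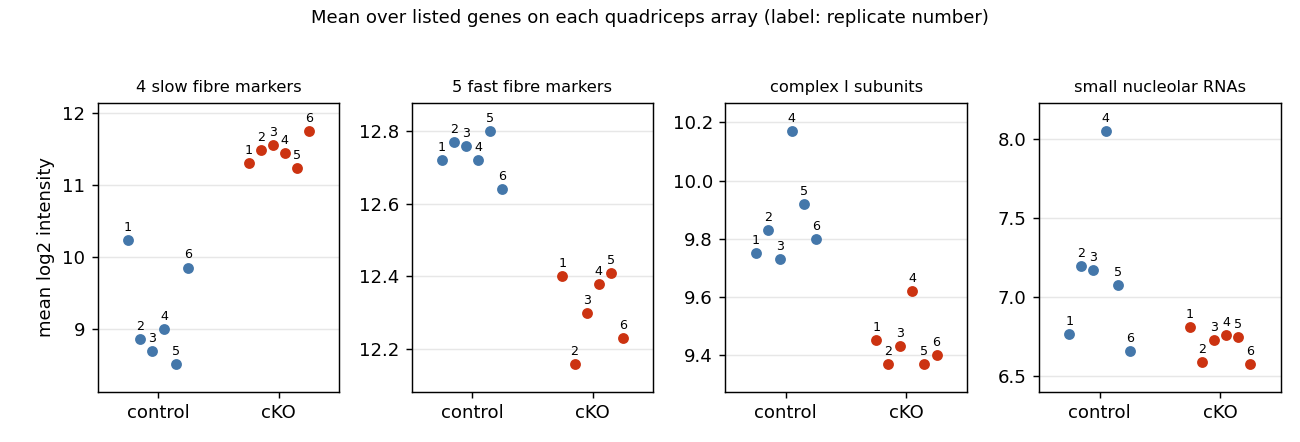
Mean log2 intensity over fixed gene sets on each quadriceps array, with the replicate number beside each point. On control arrays slow fibre markers lay at 8.51 to 10.23, against 11.23 to 11.75 on cKO arrays, and control 4 was the highest array for complex I (10.17) and for small nucleolar RNAs (8.05).

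The tissue label fitted the fibre markers, and the mean RNA of the slow and of the fast markers differed between the groups. The mean of the 5 fast markers Myh4, Pvalb, Actn3, Tnni2 and Tnnt3 was 12.64 to 12.80 in controls and 12.16 to 12.41 in cKO, near the top of the array's range in both. The mean of the 4 slow markers Myh7, Myl2, Tnnc1 and Tnni1 was 8.51 to 10.23 in controls and 11.23 to 11.75 in cKO, with no overlap. Defining genes of other tissues were dim in both groups, with Gfap of glia at 3.65 to 4.43 and Krt14 of skin at 3.99 to 4.62. Alb of liver stayed at 4.82 or below on every array except a control at 6.07, which was control 6.

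The targeted gene itself was lower. Neb (Entrez gene 17996; chromosome 2, positions 52136640 to 52338798 in GRCm38.p6, to which mm10 corresponds) read 12.11 to 12.50 in controls, with a median of 12.28, and 10.50 to 11.16 in cKO, with a median of 10.82. Every cKO array lay below every control array. The change was -1.45 (SE 0.11, 2.73-fold lower, limma adjusted p = 9.16e-08). The sources used here do not state which part of the gene was deleted or where the probes lie, and RNA of cells without MCK-Cre activity cannot be told apart from RNA that remains in the fibres.

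Several of the largest rises were in genes with low values in the control muscle. Myh3, the myosin heavy chain of embryonic fibres, read 4.68 to 7.37 in controls (median 5.58) and 10.77 to 11.77 in cKO (median 11.04). Control 2 was the highest control, and it still lay more than 3 log2 units below the lowest cKO array. The change was 5.38 (SE 0.32, 41.7-fold, limma adjusted p = 4.01e-09). Aldh3a1, which oxidises aldehydes and is abundant in cornea, read 4.30 to 5.69 in controls (median 4.49) and 8.65 to 9.11 in cKO (median 8.88), with control 2 again highest of the controls. Its change was 4.20 (SE 0.19, limma adjusted p = 2.23e-10). Runx1, a transcription factor induced in muscle that loses its nerve, had narrow groups far apart: 5.61 to 5.95 in controls (median 5.83) and 8.49 to 8.87 in cKO (median 8.64). Its change was 2.88 with an SE of 0.09 (adjusted p = 4.37e-12 in limma).

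Ankrd1, a titin-binding protein induced by stretch, read 6.74 to 9.35 in controls and 11.53 to 11.90 in cKO, a change of 4.02 (SE 0.31). The controls spanned over 2 log2 units, with control 1 highest and control 4 lowest, while the cKO arrays lay close together. Dsp, the plaque protein of desmosomes, read 4.03 to 5.27 in controls and 8.15 to 9.79 in cKO, a change of 3.96 (SE 0.26), with cKO 6 the highest array. Fam171b, Rrad (a small GTPase that restrains calcium channels), Sln, Ttc9, Tecrl, Csrp3 and Th came next, with changes of 3.56, 3.47, 3.21, 3.09, 2.98, 2.94 and 2.93. In all of these the lowest cKO array was above the highest control. Tecrl was under the dim limit on most control arrays (2.53 to 4.02), so its change is a fitted value and not exact. Sln was under the limit on controls 3 and 4 (3.19 and 3.15), so its change is not exact either. Ranks 13 to 20 were Krt18 (2.86), Mymk (2.83), Cpne2 (2.83), Myh8 (2.81), Ablim1 (2.76), Atf3 (2.74), Ostn (2.65) and Tubb6 (2.61). Ostn encodes osteocrin, a secreted peptide of muscle and bone, and read 5.93 to 6.52 in controls and 8.21 to 9.42 in cKO. Tubb6, a beta tubulin, read 6.36 to 7.24 and 9.31 to 9.58.

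The largest falls were smaller in size than the rises. Mettl21e, a muscle methyltransferase, read 4.0 to 8.45 in controls (median 6.11) and 2.93 to 4.20 in cKO (median 3.14). The groups overlapped, because control 1 lay at 4.0, and control 4 was the highest. The change of -2.72 had an SE of 0.50 (limma adjusted p = 0.000536), the largest error of the leading genes. Mettl21e lay under the dim limit on most cKO arrays, so its change is a fitted value and not exact. Mstn, the secreted inhibitor of muscle growth, read 7.48 to 9.24 in controls (median 8.87) and 5.24 to 7.13 in cKO (median 5.92), with control 1 the lowest control and cKO 5 the highest cKO array. It fell by 2.70 (SE 0.31, 6.49-fold lower). Nt5c1a, a cytosolic nucleotidase that splits AMP, had narrow groups with a wide gap, at 6.66 to 7.59 in controls (median 6.97) and 4.30 to 4.92 in cKO (median 4.65). It fell by 2.41 (SE 0.15, 5.33-fold lower, adjusted p = 6.06e-09 in limma).

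Cyp4f39 (-2.45), Mettl11b (-2.23), the sialyltransferase St8sia5 (-2.15), Chac1, which degrades glutathione (-2.14), the glucose-6-phosphate transporter Slc37a4 (-2.08), Smyd2, which methylates lysines (-1.96), Kcng4 of the potassium channels (-1.93) and Nos1 (-1.90) followed. In each of them every cKO array was below every control. Mettl11b was near the dim limit in cKO (3.42 to 4.06), so its change is not exact. Odf3l2 lay under the dim limit on all cKO arrays and was at least 3.48-fold lower, taking the limit in place of its own value there. Ranks 13 to 20 were Gpcpd1, a phosphodiesterase that releases choline (-1.90), Plcd4, a phospholipase C (-1.89), Klhl33 (-1.88), Fam131a (-1.84), Ppp1r1a, an inhibitor of protein phosphatase 1 (-1.81), Plaat1 (-1.80), the myosin light chain kinase family member Mylk4 (-1.78) and Gpt2, the mitochondrial alanine aminotransferase (-1.73). Their arrays did not overlap either. Gpcpd1 read 9.57 to 10.57 in controls and 7.90 to 8.51 in cKO, and Gpt2 read 8.54 to 9.78 and 7.39 to 7.70.

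**Figure D2:**
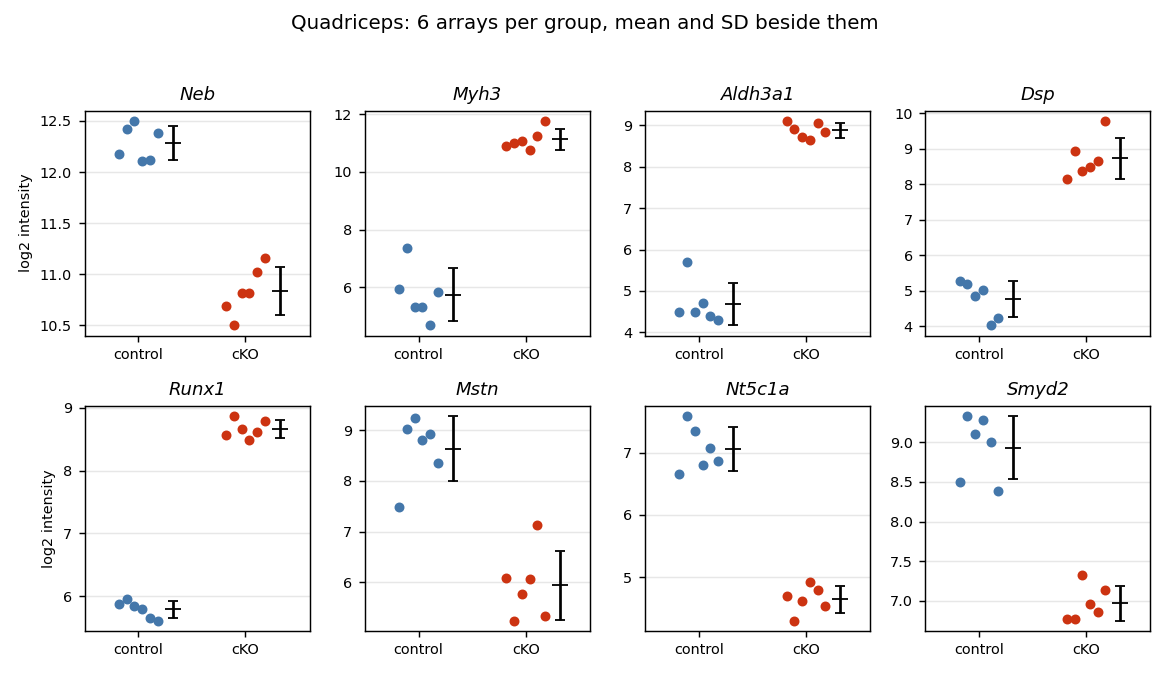
Log2 intensity on each of the 6 control and 6 cKO quadriceps arrays for 8 genes, with the group mean and standard deviation at the right of each group. The groups do not overlap in any of the 8; Myh3 reads 4.68 to 7.37 in controls and 10.77 to 11.77 in cKO, and Nt5c1a 6.66 to 7.59 and 4.30 to 4.92.

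Among partners of nebulin on the thin filament, the kelch proteins split. Klhl41 and Klhl40, which stabilise nebulin and its partners and are themselves genes of nemaline myopathy, rose by 0.56 (SE 0.09) and 0.42 (SE 0.11). Klhl41 read 11.02 to 11.64 in controls and 11.87 to 11.98 in cKO, without overlap. Kbtbd13, also mutated in nemaline myopathy, fell by 1.27 (SE 0.16) (6.28 to 7.01 in controls, 5.11 to 5.99 in cKO), and Klhl33 fell by 1.88 (SE 0.16). Over the 10 kelch genes 2 rose, 5 fell and the median change was -0.45. Lmod2, a leiomodin that nucleates actin and is abundant in heart, was the main riser among filament caps and nucleators (1.14, SE 0.12), at 9.12 to 9.85 in controls and 10.39 to 10.98 in cKO. Lmod3, the leiomodin of skeletal muscle, did not pass the test (-0.17, SE 0.09) except with arrays centred on the 75th percentile (-0.25, limma adjusted p = 0.0416). Tmod4, which caps the pointed end, fell by 0.70, and Capza2, a subunit of the cap at the Z-disc end, fell by 0.81 (SE 0.07) (10.03 to 10.31 in controls, 9.25 to 9.37 in cKO). Of these 16 caps and nucleators 2 rose and 3 fell, beside 20% and 14.0% of all genes. Without control 4 the counts were 3 and 5. Nrap, a nebulin repeat protein of forming myofibrils, read 11.14 to 11.84 in controls and 11.73 to 11.97 in cKO and rose by 0.34 (SE 0.11, limma adjusted p = 0.0301). This call was narrow: it was lost without any of cKO 4, cKO 6 or controls 2 to 5 (adjusted p up to 0.0684) and with arrays centred on the 75th percentile (0.075).

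Z-disc genes moved in both directions. Of 23 tested 8 rose and 7 fell, with a median of 0.09. Besides Csrp3, the muscle LIM protein (7.20 to 8.75 in controls, 11.14 to 11.38 in cKO), the LIM proteins Ablim1 (2.76), Fhl2 (1.74) and Fhl1 (1.09) rose, as did the filamin Flnc (0.97) and the calsarcin of slow fibres Myoz2 (1.35, SE 0.19). Myoz1 and Myoz3, calsarcins of fast fibres, fell (-0.57, SE 0.10, and -0.99, SE 0.12). The alpha-actinins split in the same manner, with Actn2 up by 0.63 (SE 0.13) and the fast fibre isoform Actn3 down (-0.49, SE 0.10). In the fit on all 24 arrays Actn3 was not called (adjusted p = 0.0798 in limma). Smtnl2, a smoothelin-like protein, fell most (-1.45, SE 0.15) (8.89 to 9.87 in controls, 7.77 to 8.37 in cKO). At the M-band, where thick filaments are cross-linked, Myom3 rose by 2.43 (SE 0.25) while Myom1 and Myom2 fell (-0.36 and -0.49). Myom3 was highest among controls on control 6 (8.03) and at least 9.30 in cKO. The ligase Trim54 fell by 0.66. Titin itself (Ttn) read 12.00 to 12.61 in controls and 12.41 to 12.59 in cKO and was not called (0.12, SE 0.10).

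Intermediate filaments were among the strongest structural changes outside the sarcomere. Krt18, a keratin of simple epithelia, read 4.94 to 5.38 in controls and 7.56 to 8.42 in cKO, a change of 2.86 (SE 0.14, adjusted p = 5.66e-10 in limma), and its partner Krt8 rose by 1.12 (SE 0.15). Nestin (Nes), a filament protein of immature fibres, rose by 1.85 (SE 0.19) and lamin A/C (Lmna) by 0.85 (SE 0.07). Desmin (Des), the main muscle filament, rose by 0.37 (SE 0.11) (10.99 to 11.71 in controls, 11.85 to 12.09 in cKO). Synemin (Synm), which joins desmin to the dystrophin complex, fell by 0.91 (SE 0.12). Of 14 members 8 rose and 2 fell, with a median of 0.43.

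The contractile isoforms differed gene by gene within each protein. Among myosin heavy chains Myh8, the perinatal form, read 6.44 to 7.10 in controls and 9.10 to 9.91 in cKO (change 2.81, SE 0.14). Myh7, the slow form, read 8.98 to 11.12 in controls, highest on control 6, and 11.91 to 12.37 in cKO (2.33, SE 0.32). Myh2 of type IIa fibres rose by 1.01 (SE 0.14), Myh1 of type IIx fibres was not called (0.13, SE 0.13), and Myh4 of type IIb fibres fell by 0.23 (SE 0.08, adjusted p = 0.0253 in limma) (12.77 to 12.84 in controls, 12.40 to 12.72 in cKO). The fall of Myh4 was not called without cKO 3 or cKO 6 (adjusted p = 0.054 and 0.0574), after quantile normalization (0.127) or in the fit on all 24 arrays (0.754). The myosin heavy chain genes are highly alike in sequence and bright, so part of a signal may belong to a neighbour. The non-muscle chains Myh10 and Myh9 rose by 1.90 and 0.77.

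Light chains and thin filament proteins gave the same kind of split. Myl6b (2.54, SE 0.12), Myl2 (1.90) and the embryonic and atrial chain Myl4 (1.73) rose. Mylpf, the fast regulatory chain, fell by 0.30 (SE 0.08) and its kinase Mylk2 fell by 1.41 (SE 0.11). Tnnt2, the troponin T of embryonic and heart muscle, rose by 1.58 (SE 0.14) (6.52 to 6.89 in controls, 7.91 to 8.85 in cKO). The fast troponins Tnnc2 and Tnni2 fell (-0.42 and -0.52). Tpm3, the slow tropomyosin, rose by 1.72 (SE 0.23) and Tpm1 fell by 0.34 (SE 0.07). Mybpc2, the fast myosin binding protein C, fell by 1.25 (SE 0.12) (11.81 to 12.28 in controls, 10.38 to 11.18 in cKO), and the slow form Mybpc1 rose by 0.50 (SE 0.12).

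Among the small membrane proteins that inhibit the calcium pump of the sarcoplasmic reticulum, sarcolipin rose, myoregulin fell and phospholamban (Pln) was not called (0.11, SE 0.13) except without controls 4 and 6 together (0.29, limma adjusted p = 0.0498). Sarcolipin (Sln) read 3.15 to 4.37 in controls (median 4.01), under the dim limit on controls 3 and 4, and 6.88 to 7.29 in cKO (median 7.01). Myoregulin (Mrln) read 8.92 to 9.91 in controls (median 9.44) and 7.66 to 8.13 in cKO (median 7.91), a change of -1.51 (SE 0.15, limma adjusted p = 9.38e-07). No array of one group reached the other in either gene. The fast pump Atp2a1 fell by 0.25 (SE 0.07), which quantile normalization brought to an adjusted p of 0.0556 in limma, and the slow and cardiac pump Atp2a2 rose by 1.77 (SE 0.23), again with its highest control, 10.51, on control 6. Casq2, the cardiac calcium store protein, rose by 2.17 (SE 0.21), and the buffer parvalbumin (Pvalb) fell by 0.66 (SE 0.09), a call lost in the fit on all 24 arrays (adjusted p = 0.0746).

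At the triad, where the surface membrane meets the calcium store, 5 of 17 genes fell and 2 rose, and 8 fell with arrays centred on the 75th percentile. Jph2, which ties these membranes together, fell by 1.13 (SE 0.12) (9.42 to 10.11 in controls, 8.41 to 8.85 in cKO). Stac3, needed for coupling of excitation to calcium release, fell by 0.58 (SE 0.09) and Jsrp1 fell by 0.51 (SE 0.09). The adult release channel Ryr1 was not called (-0.17, SE 0.11) with all arrays but was without control 4 (-0.28, adjusted p = 0.00695 in limma), whereas Ryr3, the isoform of young muscle, rose (4.09 to 4.41 in controls, 5.17 to 5.49 in cKO; change 1.13, SE 0.08, limma adjusted p = 3.87e-08).

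Surface channels were lower on balance: of 14 sodium, chloride and potassium channel genes 8 fell and 4 rose, with a median of -0.33. Scn4b, a sodium channel beta subunit, fell by 1.31 (SE 0.11), Kcna7 fell by 1.11 (SE 0.13), Kcnc4 fell by 1.05 (SE 0.09) and the chloride channel Clcn1, which steadies the resting fibre, fell by 0.64 (SE 0.12). Kcnn3, a small-conductance potassium channel known from denervated fibres, rose (5.12 to 6.37 in controls, 7.57 to 8.08 in cKO; change 1.96, SE 0.18). Atp1b4, a pump subunit relative found in perinatal muscle, rose by 2.47 (SE 0.21), while Atp1b2 fell by 0.99 (SE 0.11). The lactate exporter Slc16a3 fell by 1.16 (SE 0.14). In the dystrophin complex, which joins the fibre's skeleton to the matrix, 7 of 13 rose and 2 fell. Utrophin (Utrn), the relative of dystrophin found at the endplate, rose by 1.19 (SE 0.15), dystrophin (Dmd) by 0.67 (SE 0.17) and Sntb1, a syntrophin, by 1.47 (SE 0.16). Nos1, which this complex holds at the membrane, read 5.97 to 7.45 in controls and 4.60 to 5.14 in cKO. Of 13 membrane repair and caveola genes 4 rose and 0 fell, a share near that of all genes.

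The acetylcholine receptor, the ion channel that opens when the nerve fires, is made of alpha, beta and delta subunits with either a gamma subunit, in fetal or denervated fibres, or an epsilon subunit, in innervated adult fibres. Promoters of the alpha and gamma genes are shown because these subunits rose together and hold several copies of the E-box CAGCTG, a motif bound by myogenic factors such as Myod1 and Myog. The motif reads the same on both strands. The 250 bases before the RefSeq start are given 5′ to 3′ on the gene's strand, with the E-boxes in capitals, from GRCm38.p6. Chrna1 lies at chr2:73580339-73580588 on the minus strand, with E-boxes that begin 92 and 44 bases before the start, and Chrng at chr1:87205561-87205810 on the plus strand, with E-boxes 155 and 132 bases before the start.

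Chrna1: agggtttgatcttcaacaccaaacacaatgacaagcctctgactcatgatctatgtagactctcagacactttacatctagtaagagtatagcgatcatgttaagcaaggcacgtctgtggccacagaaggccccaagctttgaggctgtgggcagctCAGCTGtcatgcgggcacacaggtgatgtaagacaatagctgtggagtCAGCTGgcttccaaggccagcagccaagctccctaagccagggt

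Chrng: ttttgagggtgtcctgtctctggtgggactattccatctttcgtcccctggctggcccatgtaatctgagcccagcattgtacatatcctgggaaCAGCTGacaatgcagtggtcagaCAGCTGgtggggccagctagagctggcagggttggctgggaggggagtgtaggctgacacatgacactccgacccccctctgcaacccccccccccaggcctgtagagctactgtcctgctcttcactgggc

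This E-box occurred in 12.8% of 27025 RefSeq promoters of the same length. Chrne, which was not called, and Musk hold 1 copy each, and none was found in the window of Chrnb1. Among regulators of the denervated fibre, none was found for Hdac4, Myog, Runx1 or Gadd45a, which rose. Hdac9, which was not called, holds 1 copy in each of its windows. The promoters shown were chosen for the rise and for the motif, so nothing is read from finding both together. A match is a description of the sequence and not a measured site.

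All receptor subunits except epsilon rose. Chrna1 read 7.43 to 7.87 in controls (median 7.67) and 9.25 to 9.59 in cKO (median 9.41), a change of 1.77 (SE 0.09). Chrng read 4.45 to 4.91 in controls (median 4.70) and 6.30 to 6.86 in cKO (median 6.58), a change of 1.87 (SE 0.10). Both had narrow groups with a wide gap between them (limma adjusted p = 1.28e-09 and 1.85e-09). Chrnd rose by 1.77 (SE 0.12) and Chrnb1 by 1.04 (SE 0.13), while Chrne, whose RNA is made by nuclei under the endplate, read 6.66 to 7.25 and 6.83 to 7.30 and was not called (0.15, SE 0.11). Of 12 organisers of the endplate 4 rose and 0 fell, led by the receptor kinase Musk (0.96, SE 0.21) and the protein kinase A subunit Prkar1a (0.50). Of 9 regulators of the denervated fibre 8 rose, among them Ncam1 (6.58 to 7.50 in controls, 9.43 to 10.05 in cKO; change 2.59), the histone deacetylase Hdac4 (1.06, SE 0.14), Gadd45a (1.62, SE 0.13) and Gdf5, a BMP ligand that limits wasting after nerve loss (0.75, SE 0.09).

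Of 11 myogenic transcription factors 5 rose and 2 fell (median 0.26). Myogenin (Myog), which drives the differentiation of myoblasts, read 5.67 to 6.25 in controls and 8.33 to 8.83 in cKO (2.54, SE 0.11). Myod1 rose by 1.06 (SE 0.10), Myf6, the factor of mature fibres, by 0.82 (SE 0.08) and Myf5 by 0.69 (SE 0.14). Eya1, a cofactor of the fast programme, fell by 0.53 (SE 0.09) and Mef2d, a factor of muscle gene transcription, fell by 0.31 (SE 0.10, limma adjusted p = 0.0261). The call for Mef2d was lost without any of cKO 1, 2, 3 or 5 (adjusted p up to 0.0618) and without controls 4 and 6 together (0.0621). Myomaker (Mymk), the membrane protein that lets myoblasts fuse, read 4.78 to 6.42 in controls and 8.42 to 8.76 in cKO (2.83, SE 0.20), and its partner Mymx rose by 0.54 (SE 0.12). Of 18 stem cell and fusion genes 12 rose and 1 fell (median 0.39). The stem cell marker Pax7 rose less, by 0.40 (SE 0.10). Megf10 (1.26, SE 0.12), a receptor of these cells, rose without overlap.

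**Figure D3:**
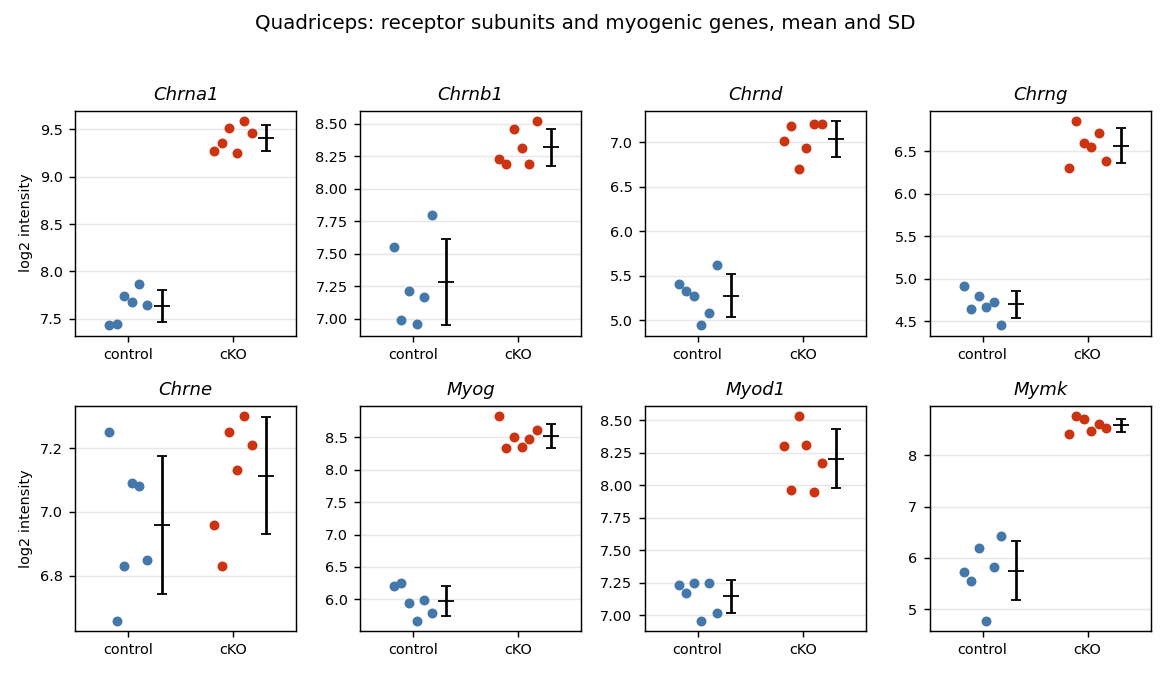
Log2 intensity on each quadriceps array for the 5 acetylcholine receptor subunits and for Myog, Myod1 and Mymk, with group mean and standard deviation. The groups are separate in every panel except Chrne, which reads 6.66 to 7.25 in controls and 6.83 to 7.30 in cKO.

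Regulators of fibre type changed in part. Prox1, a factor of slow fibres, rose (4.60 to 5.65 in controls, 6.56 to 6.89 in cKO; change 1.58, SE 0.13), and Sox6, which represses slow genes, fell (8.63 to 8.93 in controls, 7.65 to 8.17 in cKO; change -0.83, SE 0.09). Rcan1, a target and inhibitor of calcineurin, rose by 1.21 (SE 0.19) and the nuclear receptor Esrrg by 1.20 (SE 0.22), while the coactivator of mitochondrial genes Ppargc1a read 8.33 to 9.15 in controls and 8.0 to 8.52 in cKO (-0.51, SE 0.15, limma adjusted p = 0.0145). Over the 19 genes 6 rose and 5 fell, beside 20% and 14.0% of all genes. The slow fibre markers moved with these genes, and their part in the values was not tested. In the fit on all 24 arrays Ppargc1a was not called (adjusted p = 0.195 in limma).

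Growth signalling changed at the level of ligands, inhibitors and receptors. Beside the fall of Mstn, its antagonist follistatin (Fst) rose (6.31 to 7.10 in controls, 8.24 to 8.82 in cKO; change 1.92, SE 0.13). Of the receptors of myostatin, Acvr2b (-0.85, SE 0.15) and Acvr1b (-1.10, SE 0.13) fell without overlap of the arrays, and Acvr2a was not called (0.18, SE 0.14). The TGF-beta receptors Tgfbr1, which myostatin also uses, and Tgfbr2 rose by 0.48 and 0.65 and their ligands Tgfb1, Tgfb2 and Tgfb3 by 0.51, 0.79 and 0.67. The BMP targets Id1, Id2 and Id3 rose by 0.60, 1.33 and 0.79. Of 18 ligands and inhibitors 10 rose and 2 fell, and of 15 receptors and SMADs 7 rose and 4 fell.

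Of 19 genes of the insulin-like growth factor pathway 11 rose and 0 fell. Igf2, the fetal growth factor, rose by 1.68 (SE 0.15), Igf1 by 0.69 (SE 0.10), and the receptors Igf1r and Igf2r by 0.62 and 0.84. Imprinted genes, expressed from 1 parental copy and known as regulators of fetal growth, rose in 11 of 13, with a median of 1.02. Peg3 read 6.90 to 8.11 in controls (median 7.42) and 9.56 to 9.89 in cKO (median 9.78), a change of 2.27 (SE 0.17, limma adjusted p = 4.51e-08). Zim1, its neighbour, rose by 2.19 (SE 0.17), Cdkn1c, an inhibitor of the cell cycle, by 1.71 (SE 0.19), the noncoding RNA Meg3 by 1.71 (SE 0.18) and Mest by 1.49 (SE 0.23). Arrays did not overlap in these 5 genes, although the controls spanned over 1 log2 unit in each. Dlk1 was not called (0.16, SE 0.11).

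Genes that respond to stretch and to the coactivator YAP rose in 10 of 18 and fell in 1, Ankrd23 (-0.52). Amotl2, Ajuba and Lats2 were among those not called (0.14, 0.31 and 0.105). Ccn1 and Ccn2, secreted targets of YAP, rose by 1.56 (SE 0.13) and 1.48 (SE 0.14), Ankrd2 by 1.48 (SE 0.16) and the repair protein of the sarcomere Xirp1 by 1.42 (SE 0.20). Yap1 itself read 7.93 to 8.18 and 8.21 to 8.41 (0.25, SE 0.08), a call that was lost with arrays centred on the 75th percentile (adjusted p = 0.0886 in limma).

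Genes of protein breakdown did not move as a block. Of 23 ligases and FoxO factors 7 rose and 7 fell, with a median of -0.05. Fbxo30, a ligase of denervation atrophy, rose by 1.11 (SE 0.14), and Foxo1 and Foxo3, which drive atrophy genes, by 1.01 (SE 0.19) and 0.39 (SE 0.10). The atrophy ligases Trim63 and Fbxo32 were not called (-0.18 and -0.05). The SOCS box ligase subunits Asb14, Asb15 and Asb11 fell (-1.69, -1.11 and -0.91), Fbxo31 fell by 1.35 (SE 0.14) and Foxo4 fell by 0.78 (SE 0.10). Asb14 read 9.23 to 9.70 in controls and 7.47 to 8.10 in cKO. Of 31 proteasome genes 4 rose and 3 fell (median 0.09), shares below those of all genes, and 7 rose without control 5. Of 21 autophagy genes 2 rose and 4 fell (3 and 7 without control 4), beside 20% and 14.0% of all genes. Among them Tfeb, a master regulator of lysosome genes, fell by 0.79 (SE 0.09). Lysosomal genes rose in 9 of 20 and fell in 2. These included the immune cell protease Ctss (1.16, SE 0.17), Lgmn (0.80, SE 0.09) and the proton pump subunit Atp6v1a (0.92, SE 0.11). Macrophage markers moved in the same direction (18 of 24 rose, summed intensity 1396 to 2270 in controls and 2486 to 3035 in cKO), and their part in these lysosomal values was not tested.

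Chaperones rose in part. Of 22 cytosolic chaperones 12 rose and 1 fell (median 0.38): Hspa1a by 1.63 (SE 0.18), the small heat shock proteins Hspb1, Hspb7 and Hspb8 by 1.40, 1.30 and 1.06, and Hsp90aa1 by 1.01. Unc45b, which folds myosin, was the exception and fell by 0.62 (SE 0.13). Hspa1a has a near-identical neighbour, so its signal may be shared. Of 27 genes of the endoplasmic reticulum and integrated stress response 11 rose, 1 fell and 15 were not called (median 0.23). With arrays centred on the 75th percentile 10 rose and 5 fell. The chaperones of the endoplasmic reticulum Hspa5 (0.64), Hsp90b1 (0.64), Pdia3 (0.73) and Pdia4 (0.83) were among those that rose. Dnajb9 (-0.21) and Dnajc3 (0.11) were not called. The gene that fell was Chac1. In the integrated stress response Atf3 rose by 2.74 (SE 0.34) (5.50 to 7.84 in controls, 9.17 to 10.51 in cKO), while Chac1 fell by 2.14 (SE 0.14) (7.46 to 8.36 in controls, 5.51 to 6.08 in cKO), and Ddit3 was not called (0.16, SE 0.14). Of 17 p53 targets 8 rose and 1 fell (Rrm2b, a ribonucleotide reductase subunit, -0.32, SE 0.11, limma adjusted p = 0.0322, a call lost without any of 8 arrays, cKO 1, 2, 3, 4 or 6 or control 2, 5 or 6, with p up to 0.0702), led by Eda2r (2.48, SE 0.25), a receptor of the TNF family, and Mdm2 (1.19, SE 0.19). Of 24 detoxifying enzymes 5 were higher and 5 lower, beside 20% and 14.0% of all genes. Without control 6 the count of higher genes was 3. Aldh2 rose by 1.04 (SE 0.14), Aldh1a1 fell by 1.23 (SE 0.11) and mitochondrial superoxide dismutase Sod2 fell by 0.73 (SE 0.09).

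Nuclear genes of the mitochondrion were lower as a group, though by less than 1 log2 unit each in most cases. Of 34 complex I subunits 27 fell and 0 rose, and all 34 changes were negative (median -0.42). Control 4 had the highest complex I mean (10.17 against 9.73 to 9.92 on the other controls and 9.37 to 9.62 in cKO), and without it 27 were called, with a median of -0.38. Ndufv2, a core subunit, read 10.66 to 10.97 in controls and 10.01 to 10.37 in cKO (-0.55, SE 0.08). Of 42 subunits of complexes II to V 24 fell and 0 rose (median -0.30), including Cox5a (-0.60, SE 0.10), Uqcrc1 (-0.51, SE 0.08) and Cox7a1 (-0.51, SE 0.08). In the citric acid cycle and pyruvate list 13 of 24 fell and 3 rose: Suclg1 fell by 0.88 (SE 0.09), Idh3a fell by 0.69 (SE 0.10) and Pdk2 fell by 0.78 (SE 0.10), whereas Pdk1, another kinase that shuts pyruvate dehydrogenase, rose by 0.58 (SE 0.10).

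Mitochondrial ribosomal protein genes were mostly lower. With all arrays in the fit, the count of cytosolic ones called higher was near the share of all genes. Of 76 mitochondrial ribosomal protein genes 41 fell and 1 rose (median -0.31), for example Mrps21 (-0.63, SE 0.11) and Mrpl34 (-0.60, SE 0.11), and without control 4 39 fell. Of 55 cytosolic ribosomal protein genes 13 rose and 1 fell (median 0.18), beside 20% and 14.0% of all genes. This count rested on control 4 and on the scaling: 33 rose without control 4, and 5 rose when arrays were centred on the 75th percentile. The gene that fell was Rpl3l, the muscle form that replaces Rpl3 in mature fibres, at 9.87 to 10.26 in controls and 8.91 to 9.42 in cKO (-0.89, SE 0.11, adjusted p = 1.34e-05 in limma). Ribosomal protein genes have many processed copies in the genome, so their probe sets may share signal.

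Inner membrane carriers fell in 9 of 30 and rose in 4 (median -0.17), and fell in 14 with arrays centred on the 75th percentile. Slc25a5, an ADP/ATP carrier of dividing cells, rose by 0.70 (SE 0.12) and Slc25a24 by 1.32 (SE 0.10) (5.94 to 6.46 in controls, 7.32 to 7.81 in cKO). The phosphate carrier Slc25a3 fell by 0.48 (SE 0.08).

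Genes of glycogen and sugar use fell. Of 18 glycogen genes 11 fell and 1 rose (median -0.46), with the phosphorylase kinase subunits Phkg1, Phka1 and Phkb at -1.46 (SE 0.13), -1.09 (SE 0.16) and -0.83 (SE 0.10) and the phosphatase targeting subunit Ppp1r3a at -0.81 (SE 0.10). Of 21 genes of glycolysis and the reducing shuttles 14 fell and 0 rose (median -0.44). Gpd2, the mitochondrial arm of the glycerol phosphate shuttle, read 9.52 to 10.19 in controls (median 9.72) and 7.81 to 8.48 in cKO (median 8.18), a change of -1.65 (SE 0.13, limma adjusted p = 1.39e-07). Its cytosolic partner Gpd1 fell by 0.92 (SE 0.16), Fbp2, the muscle fructose bisphosphatase, fell by 1.02 (SE 0.17) and Pfkfb3 fell by 1.44 (SE 0.30). Both lactate dehydrogenases were not called (Ldha -0.09, SE 0.10). Of 19 beta-oxidation genes 9 fell and 0 rose (median -0.32). Of 19 genes of fatty acid uptake and carnitine transfer 3 fell and 1 rose, beside 14.0% and 20% of all genes. Without control 4 the counts for fatty acid uptake and carnitine transfer were 6 and 1.

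Of 18 creatine, adenylate and AMPK genes 9 fell and 4 rose (median -0.19). Ampd1, the AMP deaminase of fast fibres, read 11.42 to 11.72 in controls (median 11.54) and 9.69 to 10.39 in cKO (median 10.25), a change of -1.39 (SE 0.11, limma adjusted p = 1.05e-07). Ampd3, another isoform of the deaminase, rose (6.45 to 7.16 in controls, 7.96 to 8.26 in cKO; change 1.30, SE 0.11). The groups did not overlap in either gene, and the isoforms moved in opposite directions. Adssl1, which acts after the deaminase in the purine nucleotide cycle, fell by 1.12 (SE 0.09), Ak1 fell by 0.57 (SE 0.08), and the AMPK subunits Prkab2 and Prkag3 fell (-0.93, SE 0.13, and -0.91, SE 0.17). The catalytic AMPK subunits split, with Prkaa2 at -0.67 (SE 0.16) and Prkaa1 at 0.53 (SE 0.14), both called. Gatm, which makes the precursor of creatine, rose by 1.13 (SE 0.13). Smox, which oxidises spermine, fell by 1.67 (SE 0.21) (7.50 to 8.98 in controls, 6.30 to 7.16 in cKO). Among 17 methyltransferases 5 fell and 3 rose, beside 14.0% and 20% of all genes, and 1 rose with arrays centred on the 75th percentile.

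**Figure D4:**
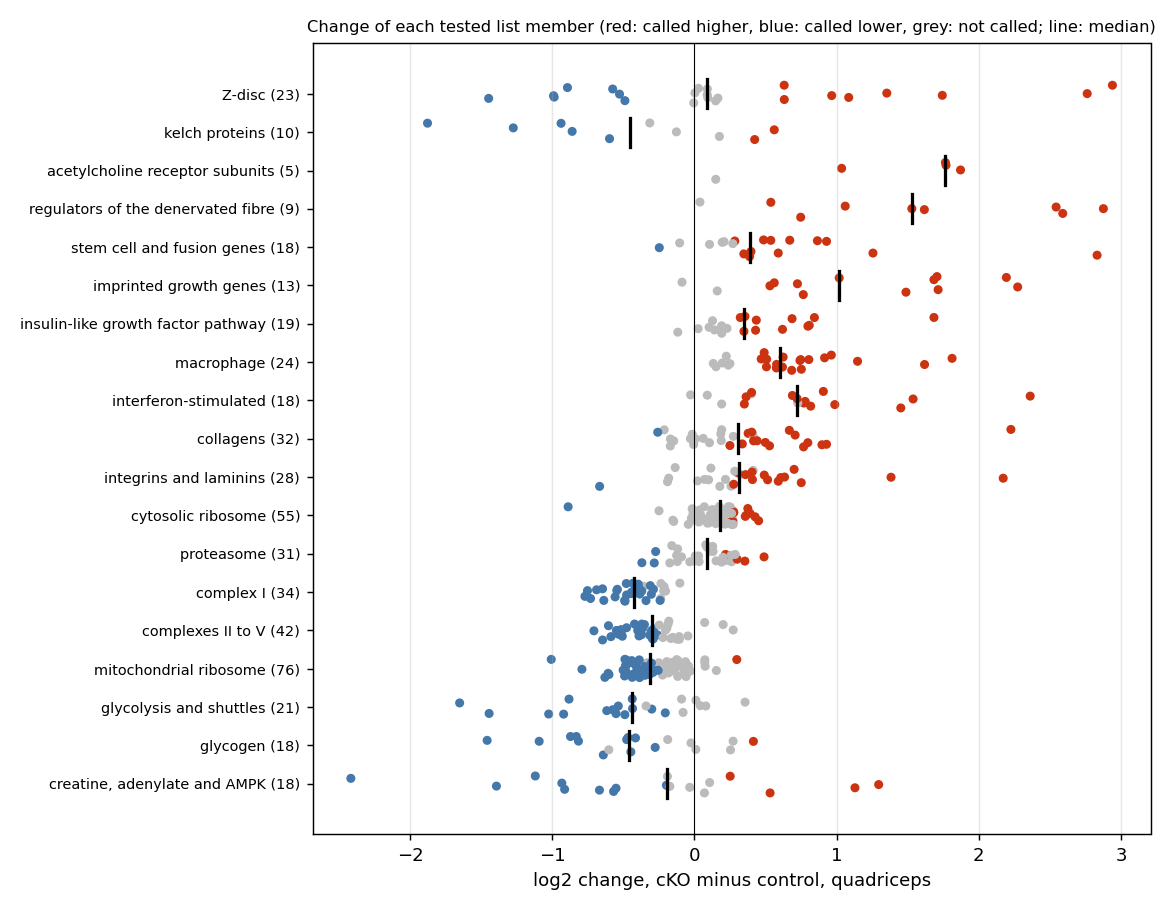
Change of every tested member of 19 gene lists in quadriceps, cKO minus control on the log2 scale, with the number of members in brackets and the list median as a line. All 34 complex I genes lie below 0 (median -0.42), 11 of 13 imprinted genes are called higher (median 1.02), and kelch and Z-disc genes spread to both sides.

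Matrix genes rose in part, and markers of matrix-making cells and macrophages rose on the same arrays. Of 32 collagen genes 15 rose and 1 fell (median 0.31), and 16 were not called, among them Col1a1 (0.41) and Col1a2 (0.42). The summed collagen intensities overlapped (5830 to 10880 in controls, 9512 to 12640 in cKO). Col8a1 stood out, at 6.20 to 6.55 in controls and 8.32 to 8.72 in cKO (2.23, SE 0.09, adjusted p = 8.91e-11 in limma), ahead of Col14a1 (0.93, SE 0.14), Col3a1 (0.90, SE 0.16) and Col12a1 (0.77, SE 0.12). Of 28 integrins and laminins 14 rose and 1 fell, led by the integrin alpha chains Itga9 (2.17, SE 0.17) and Itga5 (1.38, SE 0.10). Of 31 matricellular and cross-linking genes 17 rose and 3 fell, among them Postn (2.28, SE 0.13), Timp1 (1.6, SE 0.22), Plod2 (1.16, SE 0.13) and Loxl1 (0.89, SE 0.12).

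Among other cell types, macrophage markers were the clearest. Of 24 genes 18 rose and 0 fell (median 0.60), and their summed intensities did not overlap. Lgals3 rose by 1.81 (SE 0.18), Mpeg1 by 1.62 (SE 0.16), Cd68 by 1.15 (SE 0.14), Adgre1 by 0.80 (SE 0.12) and Csf1r by 0.58 (SE 0.10), while the marker of resident macrophages Cd163 was not called (0.24, SE 0.22). Of 12 markers of fibro-adipogenic progenitors, the matrix-making cells of muscle, 7 rose and 0 fell (sum 7218 to 9789 in controls and 9585 to 10760 in cKO), with Pdgfra at 0.60 (SE 0.12). Of 13 adipocyte genes 6 rose and 1 fell, and their sums overlapped (8833 to 16840 and 12740 to 21110). Of 8 lymphocyte, neutrophil and mast cell genes 3 rose and 0 fell. These were the mast cell proteases Cpa3 (0.98, SE 0.13), Mcpt4 (0.67, SE 0.13) and Cma1 (0.51, SE 0.09), while Kit, the receptor of mast cells, was not called (0.09, SE 0.12). Of 14 endothelial genes 0 rose and 2 fell in limma, Vegfa (-0.49, SE 0.12) and Vegfb (-0.36, SE 0.09), which are ligands that muscle also makes. Alas2 of red blood cells was not called (-0.13, SE 0.16). Of 10 smooth muscle genes 2 rose and 0 fell. Of 10 tendon genes 2 rose and 1 fell, Kera, a matrix proteoglycan (-0.93, SE 0.27). Over all genes 20% were higher and 14.0% lower, so nothing is read from the smooth muscle and tendon counts. The part of these cells in the matrix and immune values was not tested.

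Of 18 interferon-stimulated genes 13 rose and 0 fell (median 0.72). Ifitm3 read 7.95 to 8.46 in controls and 9.64 to 9.91 in cKO (1.54, SE 0.10, adjusted p = 1.38e-08 in limma), and Ifit1 rose by 1.45 (SE 0.28) with a wide cKO group, 5.08 to 7.34. The chemokine Cxcl10 was near the dim limit in controls (3.51 to 4.14) and 4.91 to 6.35 in cKO. Of 20 cytokine and NF-kB target genes 9 rose and 0 fell (median 0.14). Cx3cl1, a membrane-bound chemokine for monocytes, read 4.70 to 5.30 in controls and 7.01 to 7.36 in cKO (2.26, SE 0.12). Nfkb2 rose by 1.18 (SE 0.07) and Tnfrsf12a, the receptor of the cytokine TWEAK, by 1.27 (SE 0.28).

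Of 24 replication and mitosis genes 10 rose and 1 fell. The helicase subunit Mcm6 rose by 2.20 (SE 0.15) (4.01 to 4.76 in controls, 6.25 to 7.13 in cKO), whereas Mcm5 of the same helicase was not called (0.22, SE 0.11). Mki67, a marker of dividing cells, rose by 1.18 (SE 0.19) and Aurka fell by 0.75 (SE 0.10). Hox genes, which keep the limb position of cells, fell in 7 of 19 and rose in 0, with Hoxd8 at -0.93 (SE 0.17) and Hoxc10 at -0.62 (SE 0.11). Of 17 clock genes 2 rose and 2 fell, beside 20% and 14.0% of all genes. With arrays centred on the 75th percentile 1 clock gene rose and 5 fell. Bhlhe40 fell by 0.84 (SE 0.15).

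The soleus of the same genotypes gave a measure of how far the leading changes were shared. The 24 genes with the 12 largest rises and 12 largest falls had changes of the same sign in soleus. The difference between the muscles was called for 15 of them in limma on all 24 arrays, where 12.6% of all genes were called. These genes were chosen for large changes in quadriceps, and the same quadriceps values enter the difference, so the choice favours a larger change there and nothing is read from the count. Aldh3a1 differed most: it changed by 0.76 (SE 0.20) in soleus against 4.20 in quadriceps, a difference of 3.44 (SE 0.28, adjusted p = 1.25e-08). Runx1 changed by 1.22 (SE 0.11) in soleus, Rrad by 1.19 (SE 0.32), Cyp4f39 by -0.25 (SE 0.15) and Slc37a4 by -0.51 (SE 0.16). Mstn, Cyp4f39 and Odf3l2 had control means of 4.32, 4.27 and 3.77 in soleus, close to the dim limits of the quadriceps arrays (3.51 to 3.71), so a fall there could be measured only over a short range. The call for Th (difference 0.98, SE 0.31, limma adjusted p = 0.0375) was lost without any of 13 of the 24 arrays, with adjusted p-values up to 0.0699. For Fam171b (0.12, SE 0.22), Mettl11b (-0.11, SE 0.44), Nos1 (-0.38, SE 0.36), Kcng4 (-0.44, SE 0.32) and Dsp (0.57, SE 0.34) the difference between the muscles was not called. Myh3 (1.46, SE 0.56), Ankrd1 (0.86, SE 0.40), Mettl21e (-1.86, SE 0.70) and St8sia5 (-0.69, SE 0.24) were not called either, with limma adjusted p-values of 0.0873, 0.166, 0.0796 and 0.0629. Each of these passed when certain arrays were left out: Myh3 without quadriceps control 2 (0.025), Ankrd1 and Mettl21e without quadriceps control 1 (0.00926 and 0.0149), and St8sia5 without any of 5 arrays (lowest 0.0292).

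**Figure D5:**
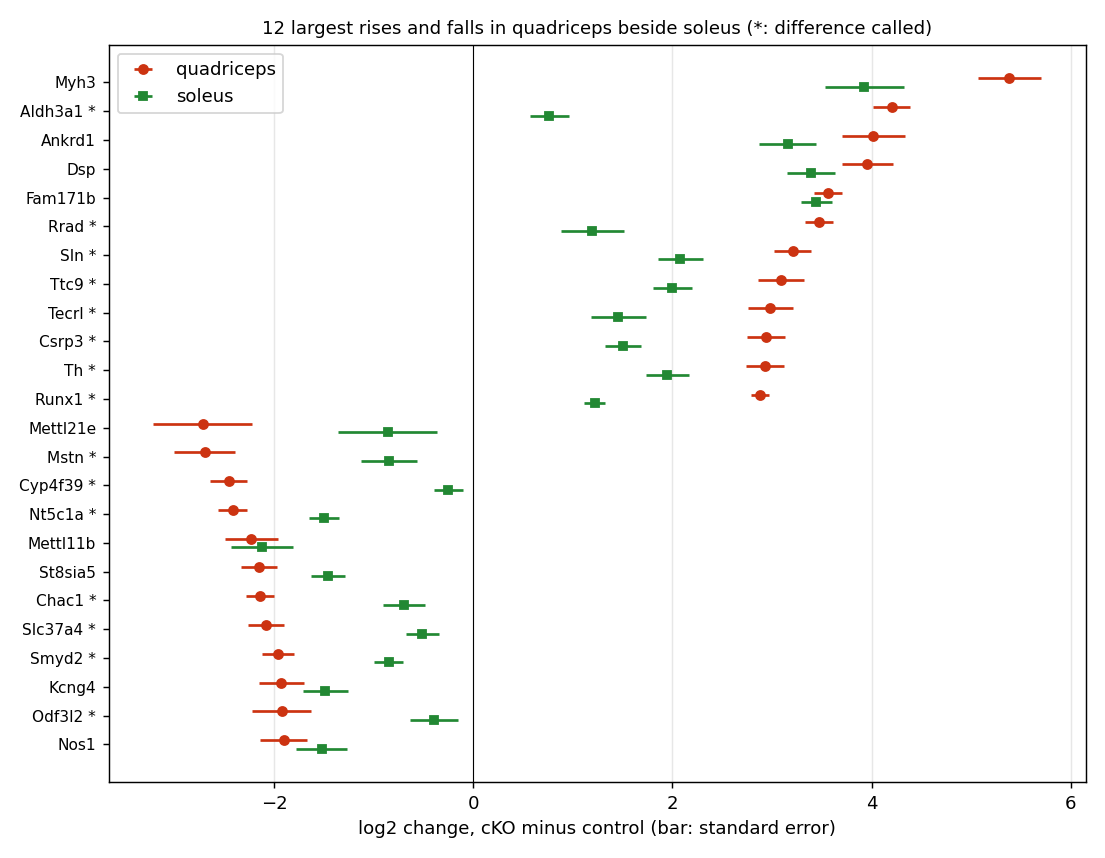
Log2 change, cKO minus control, of the 12 largest rises and 12 largest falls of quadriceps (circles, standard errors from the fit of 12 quadriceps arrays) beside soleus (squares, standard errors from the fit of all 24 arrays). Stars mark the 15 genes whose difference was called, such as Aldh3a1 with 4.20 in quadriceps and 0.76 in soleus; Fam171b and Mettl11b nearly coincide.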

How the data were processed

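RNA of 12 quadriceps was measured on Affymetrix gene arrays, 6 control and 6 cKO; 12 soleus arrays entered the comparison between muscles and, as an alternative, a shared estimate of the spread. The authors deposited a linear intensity for every probe set on every array. The submitters' processing notes name Affymetrix Expression Console, RMA and build mm10. Their versions, settings and filters, and the slides and scan dates, were not found in the labels or headers.

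Intensities were turned to log2. Of 35557 probe sets 21789 had 1 symbol; 1621 with several symbols and 12147 not listed took no part in the tests. Current symbols came by Entrez number from a RefSeq table of GRCm38.p6 (21698 probe sets matched). Where a gene had several probe sets (999 of 19938 genes), the brightest over the 24 arrays stood for it. Genes were tested if they exceeded the 30th percentile of all probe sets of an array (the dim limit) on at least 6 of the 12 arrays, which kept 15682. Where all arrays of a group lay under it, the fold is a bound: the limit, or the gene's own value if higher, stands in on each such array. Groups came from the sample titles. limma 3.58.1 in R 4.3.3 (lmFit, eBayes) gave two-sided p-values with Benjamini-Hochberg adjustment across all genes tested, called under 0.05, and a model of 4 groups on 24 arrays gave the difference between muscles. The fit was tested on simulated data. P-values weigh the difference between group means against the spread between these arrays within a group.

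The members, the 68 gene lists and the rules were chosen with earlier results of these data known. Lists overlap and are given as counts and medians. Genes to name were, by rule, the 20 strongest called rises and falls (without predicted, small RNA and pseudogene names), landmarks marked in the lists, and up to 5 members per list by smallest p; fewer appear in the text. Promoters are from RefSeq; that of Chrnd was not used here. Alternatives changed the arrays in the fit, dim filter, scaling, array weights, prior, replicate or age block and probe set rule, or left out each array; leaving out controls 4 and 6 together was chosen after seeing the data.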

Additional observations from a re-analysis of the deposited data

Results flagged for a closer look

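A sample was set apart where the gap to its nearest neighbour took up most of the range of its group of 6 (Dixon's test at 95%). Of 522 groups checked, for 261 of the genes named in the text, 47 held such a sample, and chance alone gives about 1 in 20. Apool, described at the end, was not among the genes checked. Control 4 was the array in 15 of these cases. On control 4, Actn3 read 12.61 (others 12.90 to 13.02), Capza2 read 10.31 (others 10.03 to 10.13), Nes read 5.42 (others 6.46 to 6.91), Des read 10.99 (others 11.56 to 11.71), Mybpc2 read 11.81 (others 12.17 to 12.28) and Atp2a1 read 12.73 (others 12.89 to 12.97). On the same array, Ryr1 read 11.20 (others 11.76 to 11.94), Mest read 5.39 (others 6.62 to 7.11), Unc45b read 9.11 (others 9.76 to 9.92), Idh3a read 11.01 (others 11.46 to 11.61), Phka1 read 9.94 (others 10.78 to 11.04), Ldha read 11.91 (others 12.33 to 12.53), Acvr2a read 7.27 (others 8.08 to 8.28), Prkaa1 read 7.29 (others 7.98 to 8.33) and Prkaa2 read 9.33 (others 10.16 to 10.53). Control 4 was below the other controls in every one of these 15 genes except Capza2.

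On control 1, Th read 5.39 (others 4.64 to 4.86), Cpne2 read 8.91 (others 7.02 to 7.47), Suclg1 read 9.91 (others 10.13 to 10.22) and Fbp2 read 7.83 (others 8.33 to 8.61). On control 2, Aldh3a1 read 5.69 (others 4.30 to 4.70). On control 3, Col8a1 read 6.55 (others 6.20 to 6.33), Col14a1 read 7.69 (others 6.85 to 7.10), Postn read 8.76 (others 7.92 to 8.17) and Csf1r read 7.25 (others 6.70 to 6.90). On control 5, Csrp3 read 7.20 (others 8.19 to 8.75) and Tgfbr1 read 7.06 (others 7.34 to 7.43). On control 6, Alb read 6.07 (others 3.74 to 4.59), Sod2 read 11.14 (others 10.89 to 10.96), Mcm5 read 4.59 (others 4.94 to 5.15) and Mef2d read 9.92 (others 9.39 to 9.56). On cKO 2, Alb read 4.82 (others 4.03 to 4.24), Tmod4 read 10.13 (others 10.36 to 10.49), Tnnc2 read 12.25 (others 12.39 to 12.44), Ryr1 read 11.41 (others 11.59 to 11.64), Atp1b2 read 9.03 (others 9.33 to 9.49) and Ampd1 read 9.69 (others 10.19 to 10.39). On cKO 3, Myl4 read 8.93 (others 8.24 to 8.48) and Cpa3 read 6.41 (others 6.90 to 7.09). On cKO 4, Gadd45a read 9.47 (others 9.93 to 10.19) and Cox5a read 9.74 (others 9.35 to 9.47). On cKO 5, Gpcpd1 read 8.51 (others 7.90 to 8.12) and Gdf5 read 5.51 (others 5.22 to 5.28). On cKO 6, Des read 12.09 (others 11.85 to 11.91), Mybpc1 read 12.15 (others 11.93 to 12.01), Fbxo31 read 8.87 (others 8.04 to 8.35), Col14a1 read 7.60 (others 8.0 to 8.21) and Cxcl10 read 4.91 (others 6.20 to 6.35).

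For 15 of the 24 leading genes the change in quadriceps differed from that in soleus (limma interaction on 24 arrays, adjusted p under 0.05). The genes were chosen for large changes in quadriceps, which favours a larger change there. The rises were larger in quadriceps by 3.44 for Aldh3a1, 2.28 for Rrad, 1.13 for Sln, 1.09 for Ttc9, 1.53 for Tecrl, 1.44 for Csrp3, 0.98 for Th and 1.66 for Runx1, on the log2 scale. The falls were larger in quadriceps, with differences of -1.85 for Mstn, -2.21 for Cyp4f39, -0.92 for Nt5c1a, -1.45 for Chac1, -1.57 for Slc37a4, -1.11 for Smyd2 and -1.53 for Odf3l2. In soleus Mstn, Cyp4f39 and Odf3l2 lay at 4.32, 4.27 and 3.77 in controls, near the dim limit, and Odf3l2 was under it on all quadriceps cKO arrays, so these 3 differences are fitted values and not exact. Sln and Tecrl lay under the dim limit on some of the quadriceps control arrays, so their differences are not exact either. The limma adjusted p-values ran from 1.25e-08 for Aldh3a1 to 0.0375 for Th.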

How the results depend on the processing

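The number of genes called in quadriceps (5317) ran from 4490 to 6268 when any 1 of the 12 arrays was left out, and from 4860 to 6657 under the 12 other settings, within 1.5 times in each. Genes called lower (2188) ran from 1776 to 2694 without 1 array, and rose to 3410, with 2355 higher, when arrays were centred on their 75th percentile; the cause was not tested. The change of Neb (-1.45) stayed between -1.53 and -1.38 and was called under all 24 settings. List members called (632 of 1194 tested, 349 higher and 283 lower) ran from 569 to 669 without 1 array and from 615 to 714 otherwise. Their share was above the 33.9% called over all genes, and the lists were chosen with earlier results of these data known. The genes that differed between muscles (15 of 24) ran from 14 to 18 without 1 array.

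Replicate numbers 1 to 6 occur in both groups, but same-numbered arrays correlated between -0.14 and 0.17 in their deviations from the group means, and 2 of 6 correlated best with their own number, so the numbers were not taken as pairs; with the replicate block 4881 genes were called, 2948 higher and 1933 lower, and of 17 clock genes 3 rose and 5 fell. With same-numbered muscles of a genotype as a random block, Myh3, Mettl21e and St8sia5 also passed for the difference between muscles (limma adjusted p = 0.0443, 0.0271 and 0.0252). This block treats same-numbered muscles as taken from the same animal, which the labels do not state. Among the cKO arrays, a quadriceps and a soleus with the same number carry different ages. By the labels that pair cannot be the same animal, so nothing is read from these added calls.

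Besides Neb, 260 of the named genes were checked, and 247 kept their sign and call in each of the 24 settings that tested them. The change of Alb, not called, was -0.18. It ran from -0.32 to 0.14 without 1 array (0.14 without control 6), and was 0.16 without controls 4 and 6. The difference between muscles for Mettl11b, not called, was -0.11. It ran from -0.29 to 0.20 without 1 array, and was 0.13, 0.01 and 0.20 without quadriceps control 2, quadriceps control 3 or soleus control 1.

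Limits: intensities near the dim limit hold no exact fold, and probe sets of near-identical genes share signal. Whole muscle mixes fibres with other cells, and the part of fibre type and cell mix in these values was not tested.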

Other observations

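Genes that varied among arrays without following genotype were picked after their values were seen. Apool, a protein of the inner mitochondrial membrane, read 3.07 on control 6 against 8.09 to 8.49 on the other controls, and in cKO it read 4.78, 3.10 and 2.78 on replicates 2, 3 and 6 against 8.08 to 8.21 on the others (change -1.52, SE 1.07, limma adjusted p = 0.28). The clock factor Arntl read 5.69 to 7.63 in controls and 5.35 to 7.72 in cKO, with replicate 5 the lowest array and replicate 1 the highest in both groups. Ucp1, a gene of brown fat, read 6.80 to 10.54 in controls and 5.09 to 10.06 in cKO.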
